A study of Macaca fascicularis and Mus musculus with 42 samples.

Results

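Cells sorted on day 6 of germ cell induction in B27 medium were compared here with the embryonic stem cells (ESC) of the cynomolgus monkey (Macaca fascicularis) that such inductions start from. The comparison took 7 of the 42 libraries of the series: 3 of 4 libraries labelled aRB27 day 6 double positive and 4 of 5 libraries of undifferentiated reporter ESC. Each library read the 3′ ends of transcripts from 1 ng of total RNA, and gene levels are in RPM, the reads of a gene scaled by library size. The induced cells had been dissociated ESC, aggregated in low-adherent V-bottom plates in Advanced RPMI1640 with B27, LIF at 1000 U/ml, BMP4 at 200 ng/ml, EGF at 50 ng/ml together with SCF at 100 ng/ml, and 10 µM Y27632. The ESC were kept in the AITS+IF20 condition, AITS medium with bFGF (20 ng/ml) and IWR1 (2.5 nM). All 7 libraries came from lines that carry the transgenes Blimp1-tdTomato and TFAP2C-EGFP. The 3 induced libraries and ESC libraries 1, 3 and 4 came from the line 656BTAG42, and ESC library 2 from 656BTAG63.

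The induced cells were sorted as BTAG positive, read here as positive for both reporters, Blimp1 being another name of PRDM1. Libraries keep their numbers within a label, so the induced ones are libraries 1, 3 and 4, and values per library follow this order throughout. The labels do not say that the libraries of a group were separate cultures, so the p-values measure the spread between these samples. The libraries held 1512000 to 2363000 reads in aRB27 day 6 cells and 1856000 to 6799000 reads in ESC (to the nearest 1000), so 1 read stood for 0.147 to 0.661 RPM, and 13181 to 15947 genes were detected. Over the genes tested, the correlation of log2 levels was 0.925 to 0.972 among the induced libraries, 0.918 to 0.953 among ESC libraries and 0.629 to 0.671 between the groups, and library 4 was the least like the other 2 induced ones. Titles carry the codes MS134 and MS162, and each group has libraries of both codes (1 and 2 among the induced, 2 and 2 among ESC). The libraries left out, ESC library 5 and aRB27 day 6 library 2, were doubtful in label. ESC library 5 held 253 RPM of PRDM1, against at most 2.59 RPM in the other ESC libraries. The aRB27 library 2, from the line 656BTAG63, held 153 RPM of PRDM1, close to the other induced libraries.

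Primordial germ cells are the founders of sperm and eggs. In primates they are specified around gastrulation, when BMP signals reach epiblast cells that are competent for this fate, and SOX17, PRDM1 and TFAP2C then act together to install the germ cell program. Early germ cells keep part of the pluripotency network, shed the neural and somatic programs of the epiblast and erase much of their DNA methylation. Cells induced in culture by BMP4 and supporting cytokines are called primordial germ cell-like cells.

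Germ cell factors, BMP targets and a set of surface and lipid transport genes were higher in day 6 cells than in ESC, while neural factors, de novo DNA methylation, actin and amino acid supply genes and B2M were lower. A gene was called when the Benjamini-Hochberg adjusted p of limma, on log2(RPM + 1), was under 0.05 and the difference at least 1 on the log2 scale. The filter on low values asked for 10 RPM in no fewer than 3 of these 7 libraries, and of the 8938 genes that met it 2189 were called (24.5%), 1041 of them higher in aRB27 day 6 cells (11.6%) and 1148 lower (12.8%). An unadjusted p under 0.05 was found for 3893 (43.6%). The groups did not overlap in 3590 genes (40.2%). The median difference over all genes tested was -0.10, which median-of-ratios scaling moved to -0.0025. With ESC library 2 left out, so that all libraries shared 1 line, 2254 genes were called. With the title code as a covariate 2203 were called, and within the MS162 libraries alone, 2 against 2, 1442. MS134 holds a lone induced library, so no value within that code is given.

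**Figure D1:**
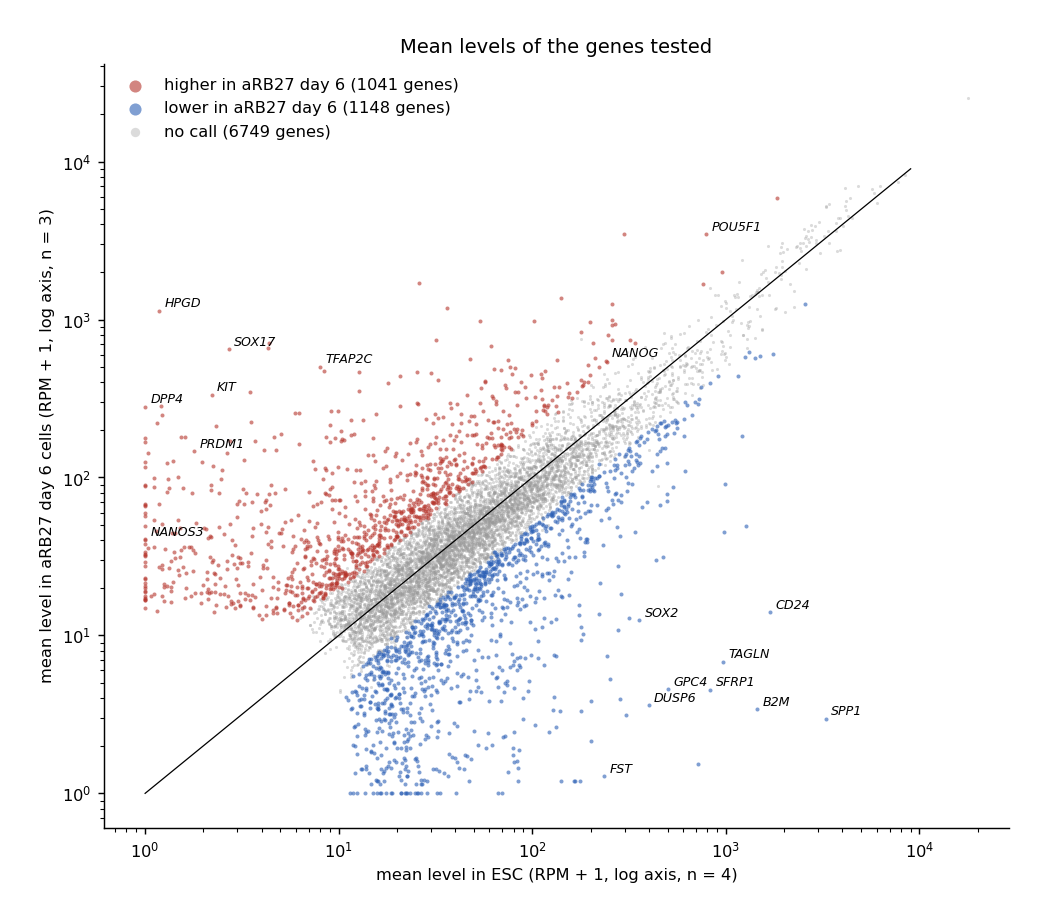
Mean level of each gene tested in aRB27 day 6 cells (vertical axis, n = 3) against ESC (horizontal axis, n = 4), both as RPM + 1 on log axes, with called genes in red (1041 higher) and blue (1148 lower). Germ cell genes such as SOX17 and NANOS3 lie at the upper left, and SPP1, B2M and SOX2 lie below the line of equal levels.

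The pseudocount of 1 RPM makes log2 differences of low genes smaller than their fold changes. A gene near 0 in one group passed the filter only if it was high in the other, so counts over lists of genes describe the genes that passed and are read beside the shares over all genes. Some genes stand in several lists. In bulk RNA, fewer cells of a type and less RNA per cell cannot be told apart. Differences are given ± SE and means ± SD, with 3 aRB27 day 6 and 4 ESC libraries, and a value in brackets without a unit is a log2 difference.

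The germ cell genes were led by the transcription factors of specification. SOX17 (101925698), the first of them to act in primates, was at 626, 597 and 714 RPM in aRB27 day 6 cells, against 3.38, 3.45, 0 and 0 RPM in ESC. Its lowest induced library lay over 100 times above its highest ESC library. It was 378-fold higher, a log2 difference of 8.26 ± 0.53 (limma adjusted p = 2.94e-07). PRDM1 (102127621), a repressor of somatic genes, was at 152, 138 and 146 RPM in aRB27 day 6 cells, against 0.59, 2.59, 0 and 0 RPM in ESC (183-fold higher, log2 6.57 ± 0.44). TFAP2C (102127991), which opens germ cell enhancers in human cells, was at 617, 502 and 386 RPM in aRB27 day 6 cells, against 2.94, 14.2, 4.4 and 6.46 RPM in ESC (71.6-fold higher, log2 6.14 ± 0.39). The gate selected cells by the reporters of PRDM1 and TFAP2C, so their differences check the labels and are no finding. Neither gene overlapped between the groups.

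Other germ cell genes were higher by amounts that varied widely. NANOS3 (102133760), an RNA-binding protein that keeps germ cells alive, was at 36.8, 35.8 and 45 RPM in aRB27 day 6 cells and listed at 0 in all 4 ESC libraries, at least 173-fold higher taking 3 reads in the pooled ESC libraries as the floor of counting. KIT, the receptor for the added SCF, was at 427, 407 and 160.1 RPM in aRB27 day 6 cells, against 0.74, 0.86, 0 and 3.23 RPM in ESC (7.31 ± 0.48, adjusted p = 4.00e-07). Library 4 was the lowest of the induced libraries in KIT and still far above ESC. TFCP2L1, a factor shared by germ cells and naive pluripotent cells, was even across the induced libraries, at 115, 119 and 110.5 RPM, against 0 in all ESC libraries (at least 507-fold higher). SOX15, a SOX factor found in human germ cells, averaged 80.04 ± 17 RPM in aRB27 day 6 cells and 0.293 ± 0.361 RPM in ESC. CXCR4, a receptor that guides migrating germ cells in mice, averaged 189 ± 31.7 RPM in aRB27 day 6 cells and 4.05 ± 3.41 RPM in ESC. It was also high in day 4 aRB27 cells positive for the Blimp1 reporter alone, at 325 and 686 RPM. SOX17 was at 925 and 716 RPM there, so neither gene was particular to double-positive cells. Other higher genes are not set beside those cells here, and whether they were particular to double-positive cells was not tested. TCL1B, of a family that activates AKT, averaged 22 ± 8.35 RPM in aRB27 day 6 cells and was at 0 in every ESC library, at least 97.3-fold higher. DND1, needed for germ cell survival in mice, was 4.57-fold higher.

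All 24 primordial germ cell genes listed had an entry and 18 passed the filter. Of these 14 were higher and 2 lower, with a median difference of 4.24, beside -0.10 over all genes tested. The higher ones include PRDM1, which the gate selected. With the 3 genes that were at 0 in ESC set at their bound, the median was 4.82. The 2 lower ones were PRDM14 and RAB15. PRDM14, a regulator that mouse germ cells need, was at 34.3, 27 and 35.7 RPM in aRB27 day 6 cells, against 160.0, 152, 118 and 136 RPM in ESC, so it stayed detectable at a lower level (-2.10 ± 0.20, adjusted p = 6.64e-06). RAB15, a small GTPase of endosomes, averaged 5.31 ± 1.25 RPM in aRB27 day 6 cells and 85.7 ± 27.6 RPM in ESC. LIFR, the receptor for LIF, was not called, at 23.1 against 21.4 RPM. DPPA3 was at or near 0 in both groups, and CD38 and ITGB3 were listed at 0 throughout.

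None of the 24 later germ cell genes with an entry passed the filter. PIWIL1, a piRNA-binding protein of the adult testis, had the highest mean of them, 15 ± 5.36 RPM in aRB27 day 6 cells and 5.67 ± 1.9 RPM in ESC. DDX4 averaged 0.423 RPM in aRB27 day 6 cells and 1.2 RPM in ESC, and DAZL 0.14 and 0.935 RPM in the same order. DDX4 and DAZL encode RNA-binding proteins of germ cells that have settled in the gonad. At this depth, levels below about 1 RPM rest on 1 or a few reads.

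**Figure D2:**
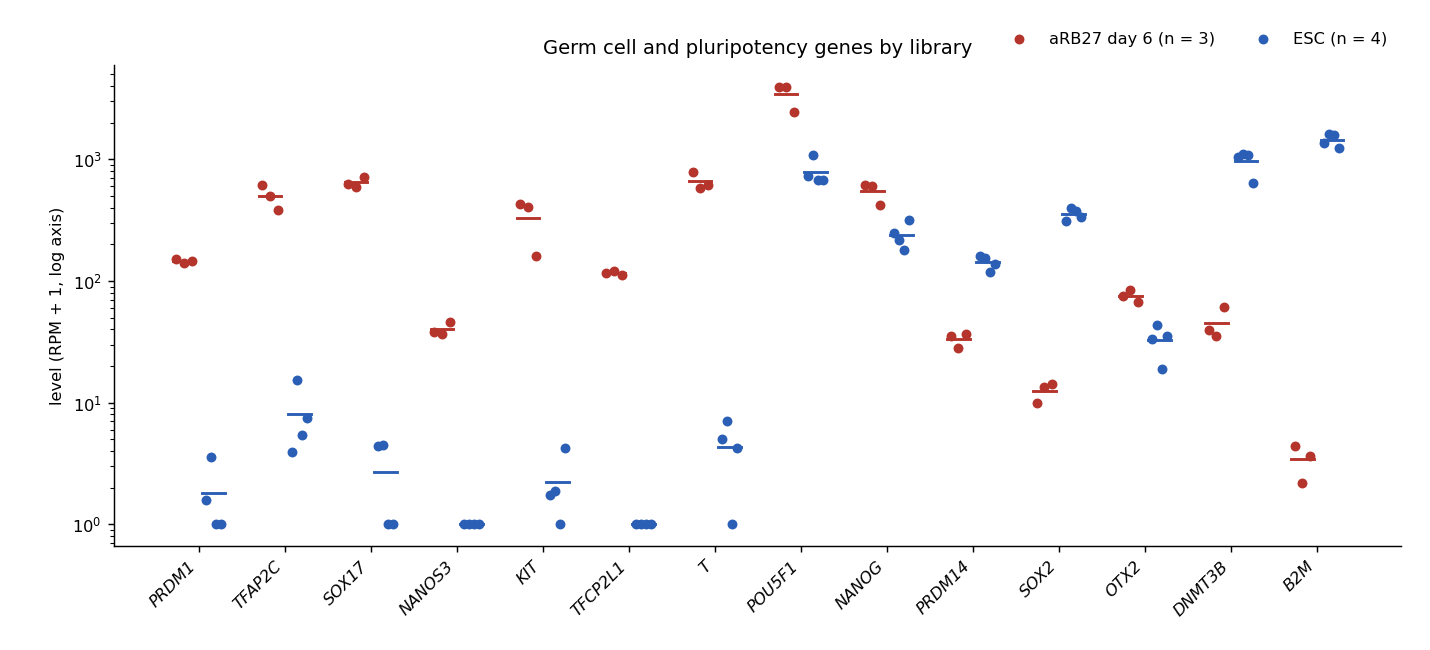
Levels of 14 genes in each library (RPM + 1, log axis), with aRB27 day 6 libraries in red left of ESC libraries in blue and bars at group means. PRDM1 to T are far higher in all 3 induced libraries, POU5F1, NANOG and OTX2 higher by less, and PRDM14, SOX2, DNMT3B and B2M lower, with no overlap between groups in any gene plotted.

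The pluripotency network was split. POU5F1 (102115117), its central factor, was at 3951, 3941 and 2470.0 RPM in aRB27 day 6 cells, against 725, 1091, 672 and 676 RPM in ESC. ESC library 2 was the highest of its group and induced library 4 the lowest of its own, and the groups did not overlap. The difference was 4.37-fold (2.12 ± 0.24, limma adjusted p = 2.05e-05). NANOG (102114964), its partner, was at 613, 604 and 423 RPM in aRB27 day 6 cells, against 246, 217, 179.8 and 317 RPM in ESC, a 2.28-fold difference (1.19 ± 0.22, adjusted p = 0.00115). Primate genomes hold processed copies of both genes, and how the authors assigned reads of such copies is not known here. SOX2 (102140202), the usual partner of POU5F1 in stem cells, was at 8.89, 12.3 and 13.2 RPM in aRB27 day 6 cells, against 311, 398, 375 and 337 RPM in ESC. Every induced library was at least 20 times below every ESC library, and SOX2 was 30.9-fold lower (-4.85 ± 0.20, adjusted p = 2.14e-08).

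Of 11 core pluripotency genes tested, 3 were higher and 3 lower, with a median of -0.08, which lay between -0.54, without induced library 4, and 0.135, without induced library 1, when a library was left out. TDGF1, a NODAL co-receptor, was the third higher one (1.06), and this call was lost when ESC library 2, ESC library 3 or induced library 4 was left out. Besides SOX2, the lower ones were LIN28B, an RNA-binding protein that blocks let-7, and PODXL, the carrier of stem cell surface antigens. LIN28B averaged 21.5 ± 9.61 RPM in aRB27 day 6 cells and 120.4 ± 36.1 RPM in ESC, and PODXL 47.3 ± 10.4 and 273 ± 121 RPM in the same order. LIN28A (555 against 986 RPM), SALL4 (87.4 against 81.2 RPM) and L1TD1 (433 against 394 RPM) were not called.

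Among 13 naive pluripotency genes with an entry, 5 passed the filter and 4 were higher, with a median of 2.25. KLF4 was at 60.9, 50.4 and 21.8 RPM in aRB27 day 6 cells, against 9.85, 16, 6.59 and 3.23 RPM in ESC (2.25 ± 0.48, adjusted p = 0.0029), with induced library 4 nearest to ESC. TBX3 averaged 35.4 ± 15.2 RPM in aRB27 day 6 cells and rested on 1 read in ESC, a ratio of 461-fold (95% counting interval 81.7 to 18280.0). KLF5 (1.94) lost its call when induced library 1 was left out. KLF17 and ESRRB, markers of naive human and mouse cells, were at 0 in all induced libraries and had means of 0.135 and 0.648 RPM in ESC.

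Factors of the primed epiblast and its neural descendants went mostly the other way, 8 of 12 lower and 2 higher, with a median of -3.02. ZIC2, a zinc finger factor, was at 61.4, 96.7 and 48.3 RPM in aRB27 day 6 cells, against 442, 291, 474 and 353 RPM in ESC (-2.52 ± 0.25, adjusted p = 8.88e-06), and ZIC5, of the same family, averaged 5.35 ± 0.968 RPM in aRB27 day 6 cells and 76 ± 28.3 RPM in ESC. SOX11, a neural SOX factor, averaged 1.28 ± 0.695 RPM in aRB27 day 6 cells and 31.1 ± 7.0 RPM in ESC, and SALL2 28.8 ± 5.02 and 146 ± 16.2 RPM in the same order. NES, the intermediate filament nestin, was at 8.04, 13.5 and 13.9 RPM in aRB27 day 6 cells, against 309.6, 208, 175 and 572 RPM in ESC, 26.8-fold lower. FOXD3 had a single read in the induced libraries and 23.7, 9.06, 25.5 and 21.6 RPM in ESC, a ratio of 118-fold (95% counting interval 21 to 4675). OTX2, a factor of the epiblast and forebrain that restrains germ cell entry in mice, was higher, at 74.1, 82.7 and 66.8 RPM in aRB27 day 6 cells, against 32.2, 42.7, 18 and 34.5 RPM in ESC (1.26 ± 0.28, adjusted p = 0.00422). The other higher member, SALL3 (1.24), lost its call without induced library 1.

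Some genes of gastrulating tissues were high in the sorted cells. T (brachyury), the mesoderm factor that BMP and WNT signals switch on, was at 781, 585 and 617 RPM in aRB27 day 6 cells, against 3.97, 6.04, 0 and 3.23 RPM in ESC (199.6-fold higher, 7.56 ± 0.52). CDX1 and CDX2, caudal factors, averaged 55.9 ± 12.4 and 32.7 ± 8.0 RPM in aRB27 day 6 cells and were at 0 in all ESC libraries, at least 247-fold and 145-fold higher. Of 7 streak and mesoderm genes tested, these 3 were higher and 1 was lower, with a median of 0.80. That median was -0.03 without ESC library 3, 0.34 without induced library 3 and 1.58 without induced library 4. The lower one, SNAI2 (-1.53), lost its call without induced library 3 or 4 or ESC library 1, 2 or 3. EOMES (22.3 against 13.7 RPM) and MIXL1 (12.6 against 15.7 RPM), streak factors, were not called. EVX1, at 49.1, 39.3 and 8.6 RPM in the induced libraries and 0 in ESC, missed the filter.

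GATA factors and other genes of amnion and trophoblast were higher. GATA3 was at 166, 162 and 179.9 RPM in aRB27 day 6 cells, against 0.59, 1.73, 0.88 and 3.77 RPM in ESC (97.2-fold higher, 6.09 ± 0.38). GATA2 averaged 25.4 ± 3.43 RPM in aRB27 day 6 cells and 0.218 ± 0.251 RPM in ESC, and TFAP2A 26.3 ± 10.8 RPM in aRB27 day 6 cells with 2 reads in all ESC libraries together. HAND1 varied among induced libraries, at 29.2, 65.7 and 16.5 RPM, against 0 in ESC. KRT19, a simple epithelial keratin, was 6.4-fold higher (139 ± 19.2 against 21.7 ± 9.71 RPM). VTCN1, an immune checkpoint protein also used as an amnion marker, was at 0 in all induced libraries, against 43.7, 57, 29 and 27.5 RPM in ESC, at least 73.1-fold lower. In all, 5 of 8 tested amnion and trophoblast genes were higher and 1 was lower, with a median of 3.58. GATA4 (50.7 ± 14.7 against 0.84 ± 1.18 RPM), CXCR4 and PRDM1 were the higher ones among 6 endoderm genes tested, whose median was 1.11. Of these PRDM1 was selected by the gate. The lower ones were LAMB1 (2.36 ± 1.97 against 126 ± 30.01 RPM), FOXA3 (-2.75) and CER1 (-4.20), whose call was lost without any 1 of the induced libraries and without ESC library 1 or 2. LMO2, a blood and endothelial cofactor, stood out in library 4, at 108, 83.8 and 319 RPM in aRB27 day 6 cells, against 2.35, 0.43, 7.47 and 0.54 RPM in ESC (5.68 ± 0.61). SOX18, a factor of vessel formation, was the other higher one, at 14.6 ± 3.99 against 1.32 ± 0.439 RPM, of 5 endothelial and blood genes tested (median 0.62), where 1 was lower once ESC library 2 was left out. Of 4 fibroblast genes tested COL6A3 was higher, and COL1A1 and THY1 were lower (median -1.63), and without ESC library 1 or 2 or induced library 4 a second one was higher.

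Summed levels of defining markers were set side by side for each cell type that an aggregate could hold. The 5 germ cell markers summed to 1451 to 1859 RPM in the induced libraries and 4.4 to 21.1 RPM in ESC. They include PRDM1 and TFAP2C, whose reporters set the gate, so part of this difference only checks the labels. The 6 endoderm markers summed to 44.3 to 66.9 RPM and 1.76 to 10.6 RPM, where GATA4 made up most and TTR was at 0 in the induced libraries. The 5 mesoderm markers reached 8.04 to 12.9 RPM in the induced libraries and 0 to 1.08 RPM in ESC, with MSGN1 at 0. The 5 amnion markers gave 16.5 to 45.1 RPM and 28.6 to 57.0 RPM in the same order, with TFAP2B and VTCN1 at 0 in the induced libraries. VTCN1 made up nearly all of the ESC sum, while TFAP2A was at 25.4, 37.5 and 15.9 RPM in the induced libraries and at most 0.54 RPM in ESC. For endothelium and blood the sums were 29.9 to 40.6 RPM and 22.0 to 27.2 RPM, with TAL1 at 0. Fibroblast markers summed to 13.9 to 35.8 RPM in the induced libraries and 136 to 346 RPM in ESC, where COL1A1 carried most. DCN and LUM went the other way, at 16.1, 11.1 and 6.61 RPM and at 2.54, 10.6 and 4.63 RPM in the induced libraries, and both were at 0 in all ESC libraries and missed the filter. Neural markers, of which 3 of 4 had an entry, summed to 9.31 to 15.9 RPM and 176 to 576 RPM, mostly NES. The part of such cells in the results below was not tested.

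None of the 26 HOX genes with an entry passed the filter. HOXA9 had the highest mean of them, 14 ± 4.29 RPM in aRB27 day 6 cells and 0.11 ± 0.22 RPM in ESC. HOXA10 averaged 6.5 RPM in aRB27 day 6 cells and 0.343 RPM in ESC, and HOXA7 4.71 and 0.77 RPM in the same order. These genes pattern the body axis and are used as signs of somatic identity.

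Most tested targets of BMP, the inducing signal, were higher on day 6. ID1 was at 207, 223 and 155 RPM in aRB27 day 6 cells, against 54.6, 49.6, 24.6 and 33.9 RPM in ESC (4.78-fold, 2.28 ± 0.28, adjusted p = 4.31e-05), and ID2 at 669, 593 and 427 RPM, against 31.8, 40.1, 98.5 and 15.6 RPM in ESC (12.1-fold). ID proteins block basic helix-loop-helix factors and are direct SMAD targets. MSX2, a homeobox target, averaged 66.3 ± 8.77 RPM in aRB27 day 6 cells and was at 0 in ESC, at least 293-fold higher. BAMBI, a decoy receptor, was higher at 160.4 ± 42.4 against 54 ± 32.9 RPM, where ESC library 3 alone reached 103 RPM. Of 7 BMP targets tested 5 were higher and none lower, with a median of 1.67. ID3 (283 against 183 RPM) and SMAD7 (109.6 against 76.1 RPM) were not called.

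Secreted BMP antagonists and receptors changed as well. GREM1, an antagonist, was at 350.4, 246 and 449 RPM in aRB27 day 6 cells, against 0.74, 0, 0 and 9.16 RPM in ESC (141-fold higher). SOSTDC1, which binds BMPs and WNT co-receptors, was at 262, 334 and 148 RPM in aRB27 day 6 cells and had 2 reads in ESC, a ratio of 1674-fold (95% counting interval 462 to 13830.0). BMPER, an extracellular BMP modulator, averaged 17.8 ± 3.5 RPM in aRB27 day 6 cells and was at 0 in ESC. FST (follistatin), which traps activin and BMPs, had 2 reads in the induced libraries and 264, 214, 319 and 143 RPM in ESC, lower by a ratio of 691-fold (95% counting interval 191 to 5711). The receptor BMPR1A was 2.9-fold higher (201 ± 31 against 69.4 ± 9.1 RPM). In all 7 of 17 tested genes were higher and 1 lower, with a median of -0.02, and the signal carriers SMAD1, SMAD5 and SMAD4 were not called. The number lower was 2 without ESC library 4 or without induced library 1, and the median was 0.04 without ESC library 4 and 0.13 without induced library 4. In the NODAL and activin list 1 of 11 was higher (TDGF1) and 2 lower (CER1 and LEFTY1), with a median of 0.55. This called share, 27.3%, was near the 24.5% over all genes tested. None of these 3 calls held with every library left out in turn, LEFTY1 losing its own without ESC library 1, and the median was 0.005 without induced library 3 and 0.17 without ESC library 3.

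WNT genes moved both ways, 5 of 23 tested higher and 6 lower, with a median of -0.37. The ligands WNT3 (40.2 ± 6.98 against 1.12 ± 1.02 RPM), which primes mouse epiblast for germ cell fate, and WNT5B (161 ± 29.6 against 5.27 ± 1.86 RPM) were higher. WNT16, a ligand outside the list that was among the largest increases of all genes, was at 186, 102.01 and 139.6 RPM in aRB27 day 6 cells and had 1 read in ESC. AXIN2, a feedback target of β-catenin, was higher at 64.7, 43.4 and 41 RPM in aRB27 day 6 cells, against 11, 16, 12.8 and 1.62 RPM in ESC (2.42 ± 0.54, adjusted p = 0.00417). DKK4, a secreted antagonist, was at 201, 187 and 306 RPM in aRB27 day 6 cells, against 20.2, 28.9, 0 and 0.54 RPM in ESC, a wide spread within ESC. SFRP1, another antagonist, was at 5.92, 4.69 and 0 RPM in aRB27 day 6 cells, against 639, 767, 1229 and 679.9 RPM in ESC (234-fold lower, -7.88 ± 0.53). The receptor FZD7 was at 3.39, 2.35 and 0.66 RPM in aRB27 day 6 cells, against 294, 351, 365 and 210.1 RPM in ESC (143-fold lower), and FZD2 and FZD8 were lower too (-4.45 and -3.22). CTNNB1, β-catenin itself, was not called, with induced library 4 apart (68.1, 53.9 and 323 RPM in aRB27 day 6 cells, against 371, 119.5, 447 and 655 RPM in ESC). The ESC medium held IWR1, a WNT inhibitor, and the induction medium is not labelled as holding it, so culture and cell state cannot be told apart for these genes.

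FGF ligands, receptors and feedback genes were likewise divided, 5 of 22 higher and 8 lower, with a median of -0.18. DUSP6, a phosphatase that ERK signaling induces, was at 0.42, 4.1 and 3.31 RPM in aRB27 day 6 cells, against 367, 618, 331 and 278 RPM in ESC (153-fold lower, -6.92 ± 0.41, adjusted p = 1.89e-07). FGF2, the factor that is also added to the ESC medium as bFGF, was at 11.9, 17 and 15.2 RPM in aRB27 day 6 cells, against 127, 199, 173 and 194 RPM in ESC, and its receptors FGFR1 (36.3 ± 5.84 against 231 ± 79.1 RPM) and FGFR2 (-2.78) were lower. MYC averaged 7.9 ± 3.96 RPM in aRB27 day 6 cells and 75.3 ± 20.7 RPM in ESC. Other feedback genes and targets of ERK differed from this: SPRY2 (129 against 141 RPM), SPRY4 (82.1 against 76 RPM) and ETV4 (139 against 168 RPM) were not called, and ETV5 was 2.61-fold higher. FGF13, an intracellular member of the family, was 12.1-fold higher (295 ± 83.5 against 24.3 ± 7.47 RPM). The addition of bFGF to one medium and not, by the labels, to the other cannot be told apart from cell state here.

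Of 16 tested receptors, signal carriers and targets listed for the added cytokines LIF, SCF and EGF, 4 were higher and 3 lower, with a median of 0.33. LIFR, which binds LIF, was not called (23.1 against 21.4 RPM). Besides KIT, IL6R, the receptor of IL6, which was not among the added cytokines, was at 117, 111 and 215 RPM in aRB27 day 6 cells, against 0.74, 1.29, 8.35 and 2.15 RPM in ESC (47.2-fold higher), and IL6ST (gp130), the shared signal chain of the LIF receptor, was 5.42-fold higher (164 ± 31.4 against 30.3 ± 5.47 RPM). Of the EGF receptor family ERBB3 was higher (31.1 ± 10.1 against 9.69 ± 3.78 RPM), ERBB2 lower (6.49 ± 2.26 against 129 ± 26.1 RPM), and EGFR itself was under the filter at 5.77 against 2.66 RPM. SH2B3, an adaptor that dampens cytokine signals, was 27.1-fold lower. SOCS3 (24.7 against 19.3 RPM), a STAT3 target, was not called.

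The enzymes that write DNA methylation de novo were low in the sorted cells. DNMT3B was at 38.5, 34.6 and 59.5 RPM in aRB27 day 6 cells, against 1046, 1106, 1090.1 and 644 RPM in ESC, 22-fold lower (-4.43 ± 0.24, limma adjusted p = 1.30e-07). ESC library 4 was the lowest of its group and still over 10 times above the highest induced library. DNMT3A averaged 9.2 ± 4.68 RPM in aRB27 day 6 cells and 67 ± 11.7 RPM in ESC (-2.81 ± 0.31). The maintenance enzyme DNMT1 (140.3 against 194 RPM), TET1 (62.8 against 81.4 RPM), which oxidizes methylcytosine, and UHRF1, the guide of DNMT1, were not called. UHRF1 averaged 15.1 ± 12.7 RPM in aRB27 day 6 cells and 33.5 ± 19.1 RPM in ESC (log2 -1.16 ± 0.54, adjusted p = 0.12). In all 2 of 12 DNA methylation genes tested were lower and none higher, with a median of -0.35, a share near the 12.8% over all genes tested.

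Of 20 Polycomb and H3K9 methylation genes tested 2 were higher and 3 lower, with a median of 0.10, or -0.004 without induced library 3. This called share was near the 24.5% over all genes tested. EHMT2 (G9a), which places H3K9 dimethylation, averaged 4.13 ± 0.562 RPM in aRB27 day 6 cells and 73.1 ± 16 RPM in ESC (17.7-fold lower, -3.83 ± 0.27), while its partner EHMT1 was not called (58.9 against 60.3 RPM). BMI1, a Polycomb subunit, was at 248, 203 and 114 RPM in aRB27 day 6 cells, against 7.65, 10.4, 7.03 and 18.9 RPM in ESC (17.2-fold higher). JARID2, which recruits Polycomb complex 2, was 3.19-fold lower, and KDM4C, an H3K9 demethylase, 4.14-fold higher. The core subunits EZH2, SUZ12 and EED were not called. Of 10 imprinted genes tested 2 were higher and 2 lower, with a median of -0.23, or 0.03 without ESC library 3. PEG10 rose to 243 ± 128 RPM in aRB27 day 6 cells, against 47.2 ± 20.2 RPM in ESC. NAP1L5 (1.42) lost its call without induced library 1. CDKN1C, a growth-limiting CDK inhibitor, had 2 reads in the induced libraries and 39.3, 27.2, 60.2 and 46.9 RPM in ESC, and PLAGL1 was at 0 in the induced libraries, against 7.5, 12.1, 10.6 and 11.9 RPM in ESC.

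B2M (101867173), the light chain that MHC class I needs at the surface, was at 3.39, 1.17 and 2.65 RPM in aRB27 day 6 cells, against 1355, 1629.9, 1593 and 1237 RPM in ESC. All ESC libraries were far above all induced ones, a 605-fold lower level (-8.79 ± 0.24, adjusted p = 6.75e-10). PSMB10, an immunoproteasome subunit (8.15 ± 2.68 against 26.2 ± 8.02 RPM), was lower as well. IFI6 was higher, at 11.4, 17 and 88 RPM in aRB27 day 6 cells, against 5.3, 3.45, 3.52 and 1.62 RPM in ESC, with library 4 far above the other 2. TAP1, TAP2 and NLRC5 were under the filter in both groups, and of 10 tested genes of the list 1 was higher and 3 lower, with a median of -0.19.

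Of 30 mitosis genes tested, 14 were lower, by moderate amounts, and none higher, with a median of -0.98. PLK1, a mitotic kinase, was at 62.2, 56.3 and 70.8 RPM in aRB27 day 6 cells, against 215, 313, 266 and 188 RPM in ESC (3.89-fold lower, -1.92 ± 0.21), and MKI67 (Ki-67) at 52.5, 55.7 and 72.1 RPM, against 173, 179, 156 and 179 RPM in ESC. BIRC5 (survivin) was 2.54-fold lower and KIF20A, a kinesin, 3.13-fold. Many members lay near the threshold of 1, and the count of 14 became 8 under median-of-ratios scaling, 8 with edgeR, 9 without ESC library 2 and 17 without ESC library 4. Of 29 replication genes tested 3 were lower and none higher, with a median of -0.51: RRM2 (-1.15), GINS2 (-1.35) and TK1 (-1.27). That share, 10.3%, was near the 12.8% called lower over all genes tested. The count of 3 became 5 without ESC library 3 or without induced library 1. MCM2, a helicase subunit, was not called at 391 against 237 RPM, nor was PCNA at 575 against 796 RPM.

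Among cyclins and CDK inhibitors, CCNE1 (21.8 ± 2.75 against 70.9 ± 18.7 RPM) and CDK6 (1.06 ± 0.408 against 25.4 ± 4.88 RPM), which drive entry into S phase, were lower, as was CDKN1C. CCND2 (2.73-fold) and RBL2, a pocket protein (3.87-fold), were higher, so that of 18 tested 2 were higher and 3 lower, with a median of -0.06. CDKN1A, the p53 target p21, was not called (23.2 against 32.5 RPM), and of 21 p53 pathway genes tested 2 were higher and 3 lower, with a median of -0.20. Without ESC library 1 or 4 or any 1 induced library a single one was higher. The called shares, 27.8% of the cyclins and CDK inhibitors and 23.8% of the p53 genes, were near the 24.5% over all genes tested. PHLDA3, a target that inhibits AKT, was 6.96-fold higher (167 ± 26.1 against 23.9 ± 14.2 RPM), and TNFRSF10B, a death receptor, 2.63-fold lower. The BH3 proteins PMAIP1 (NOXA; 85.4 ± 25.2 against 533 ± 220.3 RPM), BCL2L11 (BIM; 3.63 ± 0.904 against 18.6 ± 7.74 RPM) and BID (-1.17) were lower, while BMF, another one, was 7.13-fold higher. BCL2L1 (BCL-XL), which blocks apoptosis, was 2.89-fold higher. In all 4 of 15 BCL2 family and caspase genes were higher and 3 lower, with a median of 0.54, which was 0.04 without induced library 3, 0.335 without induced library 1 and 0.24 without ESC library 4.

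Among metabolic genes, 11 of sterol and fatty acid synthesis and transport were higher. ABCG1, a cholesterol exporter that oxysterol receptors induce, was at 183, 162 and 184 RPM in aRB27 day 6 cells and at 0 in every ESC library, at least 779-fold higher. ABCA1, another exporter, was at 569, 575 and 328 RPM in aRB27 day 6 cells, against 38, 86.7, 184 and 11.9 RPM in ESC, with a wide spread within ESC and no overlap (3.16 ± 0.66, adjusted p = 0.00279). ELOVL6, a fatty acid elongase, was 5.44-fold higher (386 ± 26.4 against 71 ± 14.4 RPM). INSIG1 (1.82), a regulator of sterol synthesis, and MSMO1 (1.42), one of its enzymes, were higher too. Of 32 tested genes of the list 11 were higher and none lower, with a median of 0.84, and the count was 10 to 15 with a library left out. FASN and SCD, which make and desaturate fatty acids, were not called (74.4 against 64.3 RPM and 224 against 211 RPM).

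Genes of serine synthesis and the amino acid response, many of them ATF4 targets, were lower in 16 cases. They were 16 of 26 tested, 1 being higher, with a median of -1.37. PHGDH, the entry enzyme of serine synthesis, was at 60.1, 67.4 and 80.04 RPM in aRB27 day 6 cells, against 264, 249, 402 and 232 RPM in ESC (4.15-fold lower, -2.01 ± 0.22, adjusted p = 1.69e-05). ASNS, asparagine synthetase, was at 29.2, 31.7 and 30.4 RPM in aRB27 day 6 cells, against 133, 126, 276 and 121 RPM in ESC. TRIB3 (1.82 ± 0.993 against 31.1 ± 22.5 RPM) and the amino acid carriers SLC7A5 (-2.07), SLC7A1 (-1.90) and SLC1A5 (-1.70) were lower as well. ATF4 itself was not called (514 against 597 RPM). DDIT4, an inhibitor of mTORC1, was the higher member (166 ± 14.3 against 41.6 ± 35.4 RPM).

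Most glycolysis and respiration genes were not called. Of 28 genes of glucose uptake and glycolysis 3 were higher and 5 lower, with a median of -0.31. The number higher was 1 without induced library 1 or 3, and without induced library 4 it was 4, with 3 lower. The called share in the main fit was 28.6%, near the 24.5% over all genes tested. ENO1 was at 654, 713 and 341 RPM in aRB27 day 6 cells, against 1484, 1896, 1001 and 1259 RPM in ESC, HK2 was 7.76-fold lower and PFKL 2.74-fold higher. Of 25 respiratory chain genes and their regulators 1 was lower, the co-activator PPARGC1B (-2.68), and the median was -0.30. Antioxidant genes were lower in 8 of 17 and higher in 2, with a median of -0.98. GCLM (8.17 ± 2.57 against 46.3 ± 13.6 RPM), of glutathione synthesis, SOD2 (23.8 ± 4.53 against 84.9 ± 16.8 RPM), of mitochondria, and TXN, thioredoxin, were lower. TXN was at 388, 419 and 949 RPM in aRB27 day 6 cells, against 1619.7, 983, 1370.1 and 2004 RPM in ESC, with library 4 just under the lowest ESC library. FTH1, the heavy chain of ferritin, was at 5341, 6584 and 5660.3 RPM in aRB27 day 6 cells, against 1728, 1572, 2036 and 2037 RPM in ESC (3.18-fold higher), and TFRC, which imports iron, was 3.18-fold lower. FTH1 has many processed copies, so its level depends on how reads were assigned. Of 16 chaperones 3 were higher and 1 lower (median 0.30), of 15 immediate early genes 2 were lower and none higher (median 0.11), and of 39 ribosomal protein genes 1 was higher (median 0.15). The called share of the chaperones was near the 24.5% over all genes tested. The share of immediate early genes called lower, 13.3%, was near the 12.8% called lower over all genes tested. EGR1 and EGR3 spread widely within ESC, where library 2 was the highest (63.8, 251, 25.9 and 12.9 RPM and 10.00, 155, 2.2 and 1.08 RPM), and were not called. Without that library 3 immediate early genes were higher and the median was 0.38, and the median was below 0 without ESC library 3 (-0.02), ESC library 4 (-0.12) or induced library 3 (-0.08). Leaving out any 1 induced library left 1 immediate early gene lower, and leaving out ESC library 4 gave 3. Leaving out ESC library 1 or 4 or induced library 1 or 3 left no chaperone lower and 1 antioxidant gene higher. The ribosomal protein gene, RPL13, lost its call without ESC library 3 or 4, and 2 were higher without induced library 4.

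**Figure D3:**
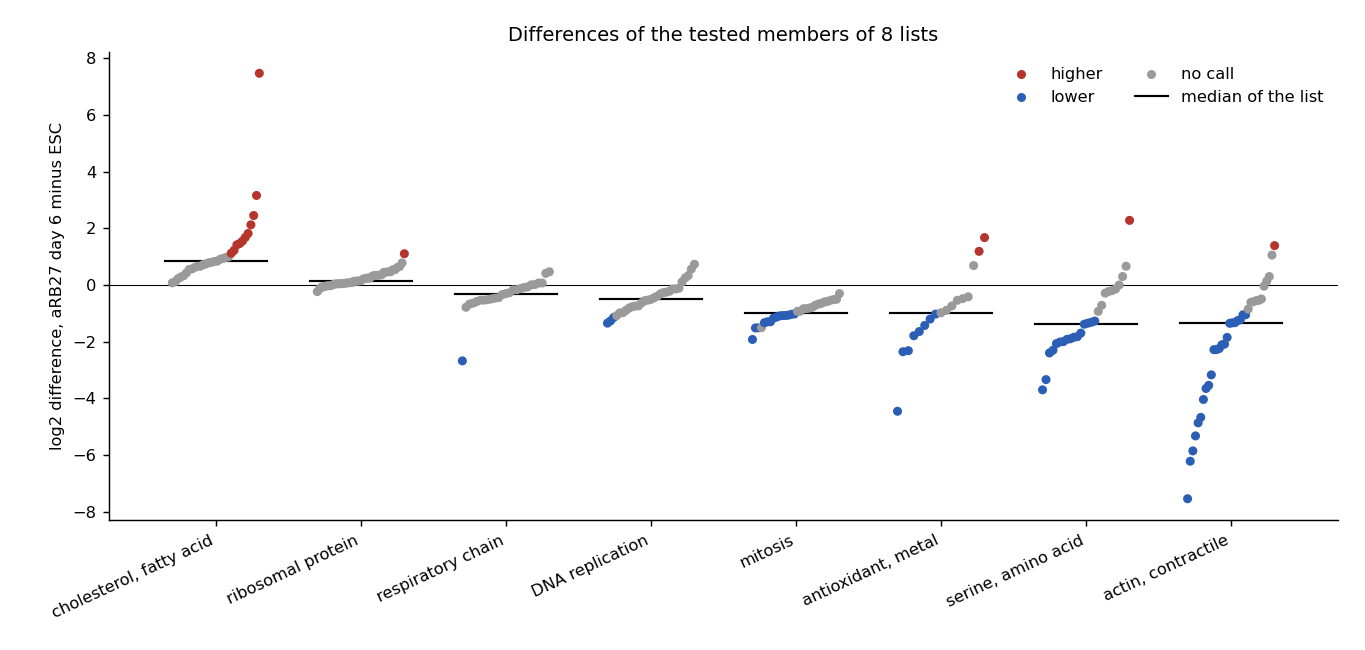
Log2 difference, aRB27 day 6 minus ESC, of each tested member of 8 lists, sorted within the list, with called members in red and blue, the others in grey and the median of the list as a bar. The median lies above 0 for sterol genes and below 0 for mitosis, antioxidant, amino acid and actin genes, and ribosomal and respiratory genes gather near 0.

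Contractile and actin-binding genes were mostly lower. Of 34 actin and contractile genes tested 23 were lower and 1 higher, with a median of -1.34. TAGLN, an actin-binding target of SRF, was at 6.35, 11.1 and 0 RPM in aRB27 day 6 cells, against 455, 599.8, 950.4 and 1834 RPM in ESC, a wide ESC spread with no overlap (165-fold lower, -7.54 ± 0.70). TPM1, tropomyosin, was at 3.39, 4.1 and 1.32 RPM in aRB27 day 6 cells, against 84.1, 303, 135 and 616 RPM in ESC, and CAV1, of caveolae, averaged 4.3 ± 1.95 and 251 ± 200.4 RPM in the same order. ACTG2 averaged 48 ± 11.4 RPM in aRB27 day 6 cells and 1266 ± 368 RPM in ESC. Cytoplasmic actins ACTB (635 against 956 RPM) and ACTG1 (5485 against 6009 RPM) and VIM, vimentin (3692 against 2796 RPM), were not called. ESC library 4 was the highest in TAGLN, TPM1 and CAV1, and without it 21 members were lower. The induced cells came from aggregates in low-adherent plates, and the culture format cannot be told apart from cell state.

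Genes of the extracellular matrix moved both ways. Of 30 glycoproteins and proteoglycans tested 15 were lower and 8 higher (median -1.32), and of 14 collagens 6 were higher and 3 lower (median 0.57). SPP1 (osteopontin) was at 0.42, 3.52 and 1.98 RPM in aRB27 day 6 cells, against 719, 5013, 1890.2 and 5468 RPM in ESC, which varied among ESC and lay far above every induced library (-9.85 ± 0.61, adjusted p = 2.36e-07). GPC4, a surface proteoglycan, was at 2.12, 5.28 and 3.31 RPM in aRB27 day 6 cells, against 395, 387, 361 and 856 RPM in ESC. SPARC (30.2 ± 12.6 against 475 ± 151 RPM), VCAN (-3.89), NID1 (-4.57) and FN1 (-2.55) were lower. EFEMP1, a fibulin, was at 257, 66.8 and 173 RPM in aRB27 day 6 cells and 0 in ESC (at least 731-fold higher), library 3 being the lowest of the induced libraries. The laminin chains LAMA5 (367 ± 42.5 against 71.9 ± 10.9 RPM) and LAMA3, which had 1 read in ESC and 85.6 ± 18.6 RPM in aRB27 day 6 cells, were higher, and LAMB1 lower. COL2A1, of cartilage and early embryonic epithelia, was at 795, 836 and 497 RPM in aRB27 day 6 cells, against 1.32, 0.43, 5.71 and 5.93 RPM in ESC (212-fold higher). COL6A3 (351 ± 70.8 against 11.8 ± 11.1 RPM), COL11A1 (292 ± 58.2 against 24.7 ± 11.1 RPM) and COL4A6 (177 ± 8.14 against 8.59 ± 5.15 RPM) were higher, and COL1A1 lower (6.43 ± 4.32 against 243 ± 90.8 RPM).

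Of 25 adhesion genes tested 12 fell and 4 rose, with a median of -0.49. The neural adhesion protein L1CAM (0.87 ± 0.88 against 84 ± 17.6 RPM) and the cadherins CDH10 (0.923 ± 1.25 against 56.8 ± 27.9 RPM) and CDH11 (-4.09) fell, and CDH6 had 3 reads in the induced libraries and 70.8, 58.3, 62.4 and 127 RPM in ESC. The fibronectin and vitronectin receptors ITGA5 (-2.15), ITGAV (-2.11) and ITGB1 (-1.32) fell, and ITGA6, used to sort human germ cells, was not called (396 against 249 RPM). PCDH17 (78.9 ± 5.33 against 3.7 ± 3.0 RPM) and EPCAM (129 ± 45.7 against 38.9 ± 22 RPM) rose. CDH2 was not called (159 against 169 RPM), and CDH1 was at 0 in the induced libraries with a mean of 1.55 RPM in ESC, under the filter. Epithelial regulators rose with EPCAM: ESRP1, a splicing factor, was at 278, 214 and 157 RPM in aRB27 day 6 cells, against 36.3, 85, 22.4 and 6.46 RPM in ESC (2.95 ± 0.60), and OVOL2, a repressor of mesenchymal genes, averaged 35.6 ± 3.94 RPM in aRB27 day 6 cells and 4.91 ± 3.28 RPM in ESC. ZEB1, which represses epithelial genes, fell (8.73 ± 2.6 against 30.6 ± 9.86 RPM). Of 13 genes of the epithelial to mesenchymal transition list 5 were higher and 2 lower, with a median of 0.30. The lower ones were ZEB1 and SNAI2. FOXC1 had the largest called difference of the list and was higher (17.7 ± 4.07 against 1.285 ± 0.6 RPM, log2 3.05 ± 0.38). The higher members were thus not epithelial regulators alone.

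**Figure D4:**
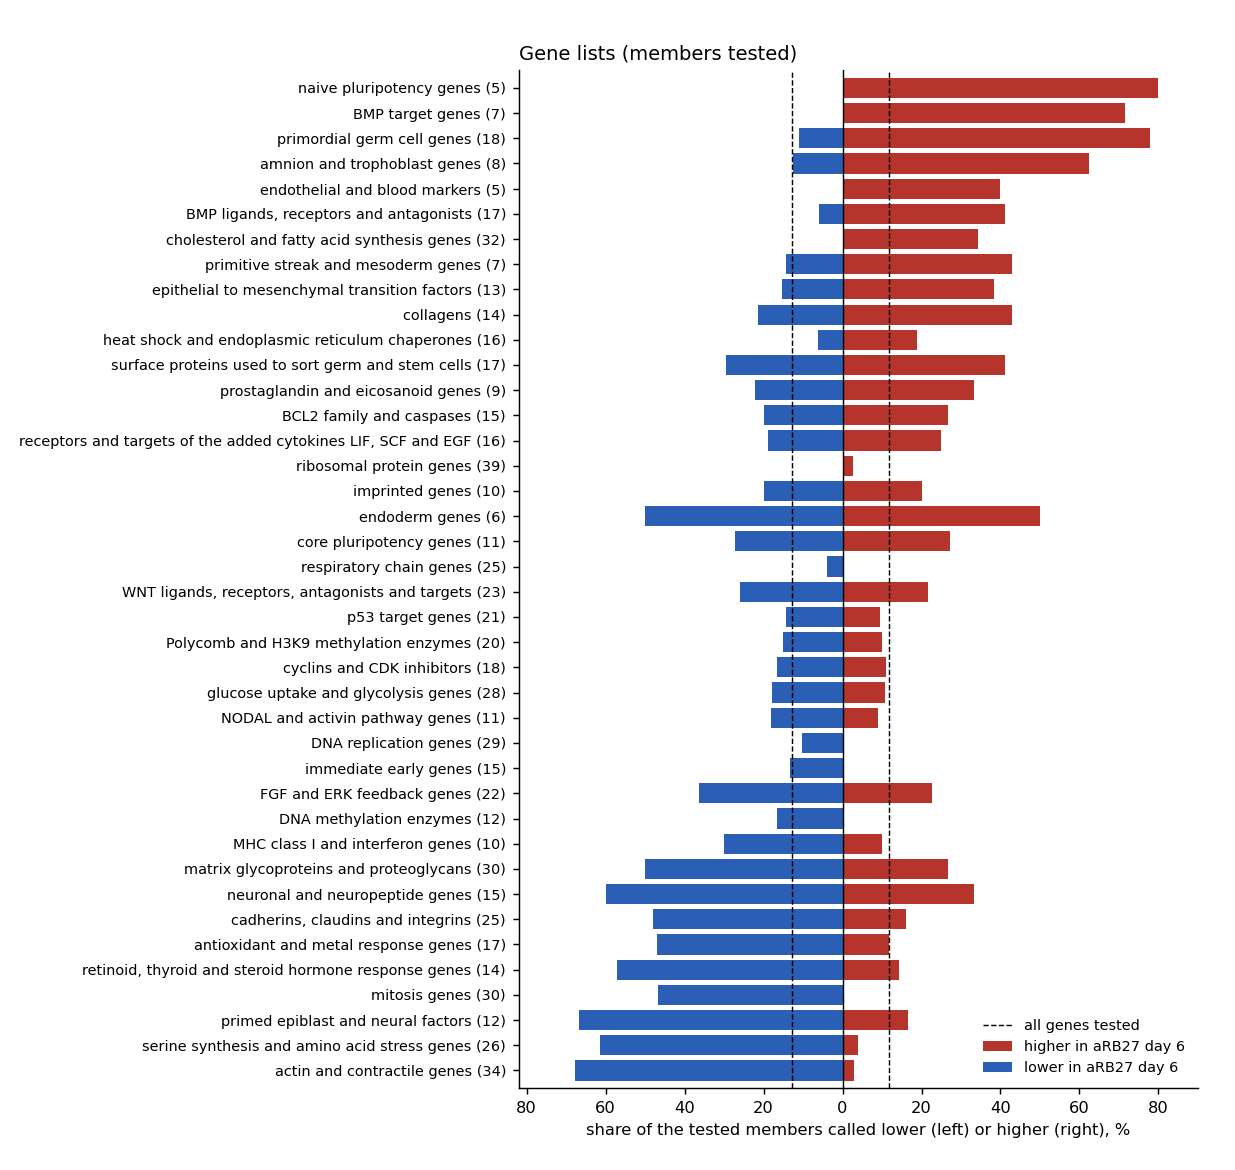
Share of the tested members of each list drawn (number in brackets) called higher in aRB27 day 6 cells (red, right) or lower (blue, left), with dashed lines at the shares over all genes tested, 11.6% higher and 12.8% lower. The fibroblast, HOX and later germ cell lists, with few or no members tested, are not drawn. Germ cell, naive and BMP target genes reach furthest right, and actin, amino acid and primed epiblast genes furthest left.

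Surface proteins used in cell sorting gave 7 higher and 5 lower of 17 tested, with a median of 0.69. DPP4 (CD26), a surface peptidase, was at 295, 277 and 265 RPM in aRB27 day 6 cells and 0 in all ESC libraries, at least 1231-fold higher (8.13 ± 0.28, adjusted p = 5.83e-09). ST8SIA6, a sialyltransferase, was as even, at 228, 218 and 216 RPM in aRB27 day 6 cells with 2 reads in ESC. PDPN (podoplanin), used to sort human germ cells, was at 1573, 1619 and 912 RPM in aRB27 day 6 cells, against 91.5, 118, 90.1 and 262 RPM in ESC (9.74-fold higher), and ALPL, alkaline phosphatase, was 7.28-fold higher. CD24 was at 11, 24 and 3.97 RPM in aRB27 day 6 cells, against 1456, 1566, 2438 and 1322 RPM in ESC (130.4-fold lower, -7.17 ± 0.42). THY1 (8.32 ± 1.16 against 177 ± 41 RPM), PROM1 (-3.37) and CD44 (-2.04) were lower.

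Prostaglandin and hormone genes differed as well. HPGD, the dehydrogenase that inactivates prostaglandins, had the largest log2 increase of all genes tested, at 1248, 1295 and 863 RPM in aRB27 day 6 cells and 3 reads in ESC, a ratio of 5115-fold (95% counting interval 1749 to 24810.0) and a log2 difference of 9.90 ± 0.28 (limma adjusted p = 6.75e-10). The prostaglandin carriers SLCO2A1 (46.2 ± 10.2 against 1.06 ± 1.38 RPM) and ABCC4 (152 ± 14.5 against 16.8 ± 4.6 RPM) were higher, and PTGIS, prostacyclin synthase, had 3 reads in the induced libraries and a mean of 21.1 RPM in ESC. The synthases PTGS1 and PTGS2 were near 0 in both groups. Of 9 genes of this list tested 3 were higher and 2 lower (median -0.37). CRABP2, which carries retinoic acid, had 1 read in the induced libraries and 153, 267, 193 and 52.3 RPM in ESC. Of 14 hormone response genes tested 8 were lower, with IRS1 (5.9 ± 3.18 against 79.1 ± 13.4 RPM) and IGF1R (22.2 ± 2.66 against 91.6 ± 11.4 RPM) of insulin signaling among them, and 2 were higher, THRB (3.66) and STRA6 (1.63), with a median of -1.20. Of 15 neuronal genes 9 were lower and 5 higher (median -1.63). CALB1, calbindin, was at 154, 129.6 and 92 RPM in aRB27 day 6 cells and 0 in ESC, CRHBP, which binds CRH, at 193, 139 and 204 RPM, against 0.29, 0, 1.32 and 0.54 RPM in ESC, and PRPH, peripherin, at 176, 208 and 38.4 RPM, against 1.62, 1.73, 2.2 and 1.08 RPM in ESC. GAP43 (-3.38) and UCHL1 (-1.63) were lower.

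Outside the lists, the genes with the largest differences or highest means included TMEM123 (porimin), a surface mucin, at 4141, 3536 and 2694 RPM in aRB27 day 6 cells, against 228, 358, 280.4 and 321 RPM in ESC (11.6-fold higher, 3.54 ± 0.21). CTSV, a lysosomal protease, was at 1833, 1817 and 1491 RPM in aRB27 day 6 cells, against 29.4, 36.7, 30.8 and 3.23 RPM in ESC (68.5-fold higher), with ESC library 4 the lowest. PRKCB, a protein kinase C, and LPP, of focal adhesions, had 1 read each in the induced libraries and 139 ± 65 and 163 ± 91 RPM in ESC. TMSB10, which binds actin monomers, was lower at 342, 327 and 1147 RPM in aRB27 day 6 cells, against 2101, 898, 1797 and 2217 RPM in ESC, although induced library 4 lay within the ESC range (-1.71 ± 0.42). Over the 43 lists, 1075 distinct genes were named, 668 of them passed the filter, and 125 were higher and 180 lower. Over all 8938 genes tested 1041 were higher (11.6%) and 1148 lower (12.8%). The lists were chosen with earlier results of these data known, so their counts describe the chosen genes alone. Putting the doubtful aRB27 library 2 back ended the call of 4, and putting ESC library 5 back that of 23, of the 158 genes named by rule.

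The double-positive aRB27 cells of days 2 and 4, 2 libraries each from the line 656BTAG42, are set beside the day 6 levels as a description, with no test. ESC (day 0) are the same 4 libraries as above. SOX17 averaged 1.71 RPM in ESC, 1121 on day 2, 905 on day 4 and 646 on day 6, and PRDM1 0.795, 292, 176 and 145 RPM in the same order. Both were thus highest on day 2. TFCP2L1 ran 0, 1.95, 71.5 and 115 RPM over these days, KIT 1.21, 53.4, 157 and 331 RPM, and DPP4 0, 27.2, 124 and 279 RPM. CTSV ran 25, 184, 1365 and 1714 RPM and ABCG1 0, 10.3, 93.9 and 176 RPM. These were highest on day 6.

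Genes that were low on day 6 differed in their day 2 levels. SOX2 was at 355 RPM in ESC and already at 12.9 RPM on day 2, then 21.7 and 11.5 RPM on days 4 and 6. SFRP1 stood at 829, 3.76, 6.67 and 3.54 RPM in ESC and on days 2, 4 and 6. B2M ran 1454, 405, 27.1 and 2.4 RPM, DNMT3B 971, 159, 66.4 and 44.2 RPM, and CD24 1696, 401, 20.01 and 13 RPM. NES kept 215 RPM on day 2, against 316 RPM in ESC, and was at 72.3 and 11.8 RPM on days 4 and 6. CRABP2 was at 166 RPM in ESC, 200.2 RPM on day 2 and 5.08 RPM on day 4. Others were high on day 2 and lower after it: PRPH at 1.66, 737, 161 and 141 RPM, HAND1 at 0, 172, 44.4 and 37.1 RPM, and CER1, which was 83.4 RPM in ESC and 339.8 RPM on day 2 before 31.8 and 0.44 RPM.

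**Figure D5:**
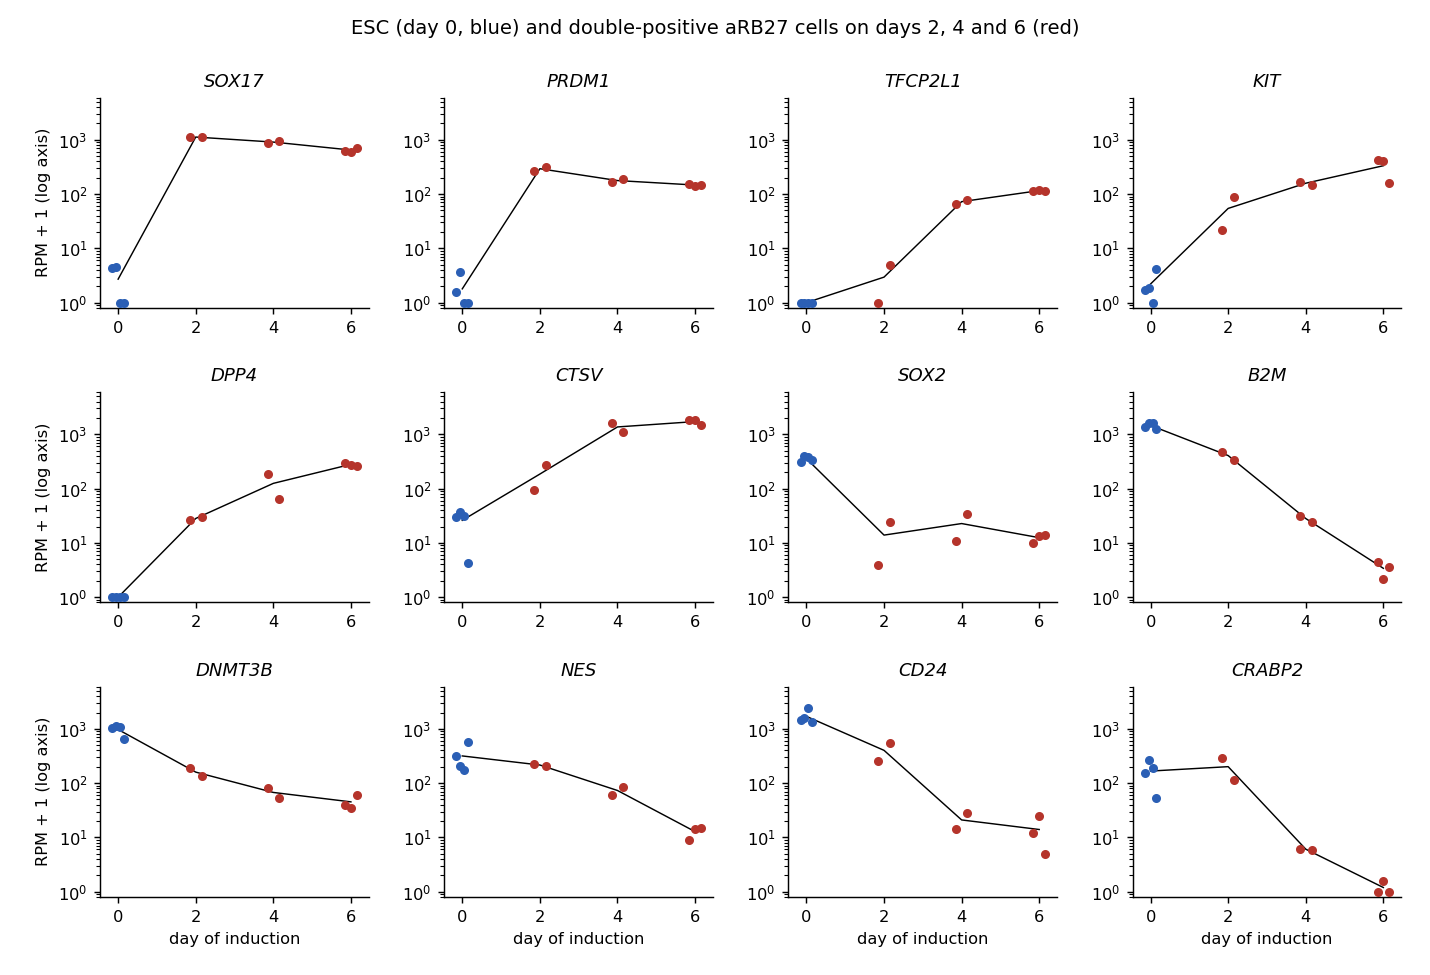
Levels of 12 genes (RPM + 1, log axis) in ESC on day 0 (blue, n = 4) and in double-positive aRB27 cells on days 2, 4 and 6 (red, n = 2, 2 and 3), with points for libraries and lines through the means. SOX17 and PRDM1 are highest on day 2, TFCP2L1, KIT, DPP4 and CTSV climb to day 6, SOX2 is already low on day 2, and NES and CRABP2 drop after it.

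The same induction was also run in GK15 medium, GMEM with 15% KSR and the same added agents, and 2 libraries of its double-positive day 6 cells, from the line 656BTAG42, were not doubted in label. Fitted together with ESC, 4 of 9222 genes were called between the media (0.0434%), 3 higher in aRB27 (0.0325%) and 1 lower (0.0108%), and 698 had an unadjusted p under 0.05 (7.57%). edgeR on recovered reads called 5. SOX2 was at 8.89, 12.3 and 13.2 RPM in aRB27, against 1.67 and 0.6 RPM in GK15 (2.58 ± 0.29, limma adjusted p = 0.00735), and both media lay far below ESC. FAM20C, a secretory pathway kinase, was at 48.7, 49.3 and 14.6 RPM in aRB27, against 2.08 and 2.41 RPM in GK15 (3.38 ± 0.50, adjusted p = 0.0388), with library 4 the lowest of the aRB27 libraries. COL5A1, a collagen, was at 31.7, 32.8 and 29.1 RPM in aRB27, against 8.33 and 6.63 RPM in GK15 (1.93 ± 0.28). FDX1, a mitochondrial ferredoxin, was at 50.8, 29.3 and 32.4 RPM in aRB27, against 138 and 153 RPM in GK15 (-1.97 ± 0.30). COL5A1 was not called against ESC, at 21.3, 26.8, 24.2 and 25.3 RPM. FAM20C, at 11.8, 11.7, 15 and 7.0 RPM in ESC, was higher against ESC unless induced library 1 or 3 was left out. FDX1, at 79, 114, 62.9 and 101.3 RPM in ESC, was lower (-1.23). The media did not overlap in these 4 genes, nor in 25.9% of all genes tested. With 1 library left out the number of calls ran from 0, without aRB27 library 3 or without GK15 library 3, to 16 without aRB27 library 4, with 2 without aRB27 library 1 and 1 without GK15 library 1. SOX2 kept its call in 3 of these 5 fits and lost it without aRB27 library 3 or GK15 library 3. FAM20C and COL5A1 kept theirs only without aRB27 library 4, and FDX1 without aRB27 library 1 or 4.

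The germ cell genes were not called between the media. SOX17 averaged 646 RPM in aRB27 and 946 RPM in GK15 (difference -0.54 ± 0.59), NANOS3 39.2 and 55.1 RPM (-0.48 ± 0.37), and KIT 331 and 349.8 RPM (-0.16 ± 0.54) in the same order. A missed threshold with 3 and 2 libraries does not show that levels were equal. The neural factors ZIC2 (61.4, 96.7 and 48.3 RPM in aRB27, against 22.9 and 19.9 RPM in GK15; 1.58 ± 0.30, adjusted p = 0.0831) and ZIC5 (4.23, 5.86 and 5.95 RPM against 0.83 and 0 RPM; 2.22 ± 0.46, adjusted p = 0.0977) did not pass, nor did CRHBP (193, 139 and 204 RPM against 557 and 591 RPM; -1.70 ± 0.35, adjusted p = 0.0977), PODXL (1.81 ± 0.35, adjusted p = 0.0857) or EFEMP1 (-1.78 ± 0.45, adjusted p = 0.201).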

How the data were processed

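The values are RPM per gene, computed and deposited by the authors in 1 table of 38 monkey libraries with 26018 entries. Per the submitters' processing notes, Cutadapt 1.3, TopHat 1.4.1 and Cufflinks 2.2.0 were used. The monkey genome build, the strand and the handling of reads shared by near-identical copies are not given in the sources used here. The depth was taken from the steps of the RPM values, of which 99.4% to 99.8% per library were whole reads within 0.1 of a step, over values up to 100 steps.

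Genes that reached 10 RPM in 3 or more libraries of the fit were tested with limma 3.58.1 (R 4.3.3) on log2(RPM + 1), with a trend of variance with level. P-values were adjusted by Benjamini-Hochberg over all genes tested. The contrast with GK15 was taken from 1 fit of 9 libraries. edgeR 4.0.16 and DESeq2 1.42.0 on recovered reads, other scalings, filters and pseudocounts, and fits without single libraries were alternatives. A fold against a group at 0 is a lower bound against 3 reads over that group (0.2265 RPM in ESC, 0.538 RPM in aRB27 day 6 cells). Intervals and floors cover counting error only.

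Genes were named by rule: 7 germ cell and pluripotency factors, up to 4 called members with the largest differences of each of 43 lists, the 12 largest non-overlapping differences each way, the 8 highest called means of each group and up to 5 calls each way against GK15. The members and lists were chosen with earlier results of these data known, and other list members named as examples were chosen after their values were seen. No sequence is printed. Some list members are not reported here. The libraries of other groups of the series were not used here except those of aRB27 days 2 and 4 and GK15 day 6, and the 24-library fit. Of the aRB27 day 4 cells positive for the Blimp1 reporter alone, only CXCR4 and SOX17 are given.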

Additional observations from a re-analysis of the deposited data

Results flagged for a closer look

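Among the ESC libraries, 1 value stood apart from the other 3 in 9 of 141 examined genes with reads in 2 or more of them (6.38%), where chance gives about 1 in 20 groups. In 5 more genes a lone library held all ESC reads, so that it stands apart whatever its value. ESC library 3 was the high one in ASNS (276 RPM, the others 121 to 133 RPM) and BAMBI (103 RPM, the others 34.95 to 38.8 RPM). It also held all ESC reads, 1 or 2 of each, of LAMA3 (0.44 RPM), SOSTDC1 (0.88 RPM) and TBX3 (0.44 RPM). ESC library 4 was low in DNMT3B (644 RPM, the others 1046 to 1106 RPM), CTSV (3.23 RPM, the others 29.4 to 36.7 RPM) and TM7SF2 (2.15 RPM, the others 9.93 to 13.1 RPM), and high in GPC4 (856 RPM, the others 361 to 395 RPM). ESC library 2, from the other line, was high in POU5F1 (1091 RPM, the others 672 to 725 RPM) and KLF6 (58.3 RPM, the others 19.3 to 22.8 RPM) and low in FOXD3 (9.06 RPM, the others 21.6 to 25.5 RPM). ESC library 1 alone held reads of THRB (0.59 RPM) and WNT16 (0.15 RPM). The aRB27 day 6 and ESC libraries did not overlap in any of these 14 genes, nor in 40.2% of all genes tested. Only named genes already called against ESC were examined, and some had been named because their groups did not overlap. The lack of overlap was thus largely fixed by this choice.

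By the test of aRB27 against GK15 day 6 cells, 4 genes were called: SOX2 (2.58), FAM20C (3.38 on the log2 scale), COL5A1 (1.93) and FDX1 (-1.97). These calls depended on the libraries used. The number called was 0 without aRB27 library 3, without GK15 library 3, and with every library of the 3 groups as labelled.

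ESC library 5, which was left out of the main fits and used only in alternatives, held 253 RPM of PRDM1, where the other ESC libraries had at most 2.59 RPM. It held 1211 RPM of SOX17, against at most 3.45 RPM in the others, and 588 RPM of TFAP2C, against at most 14.2 RPM. Its SOX2 was at 16.8 RPM. What this library holds was not tested further.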

How the results depend on the processing

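Against ESC, 2189 genes were called, and the count fell outside 1.5 times of this under 2 of 23 alternatives: 935 genes with a log2 difference of at least 2, and 1442 within the MS162 libraries alone. It was 2146 with median-of-ratios scaling, 2150 with quantile normalization, 2185 with edgeR, 2231 with DESeq2, 1549 with a pseudocount of 10 RPM, 3041 with no filter and 1837 with all 9 libraries as labelled. With 1 library left out it ran from 1986 to 2297. Calls that were higher made up 47.56% of all calls, 53.54% with median-of-ratios scaling and 54.32% with edgeR. Of 158 genes named by rule 157 were called against ESC, 100 were called in every alternative, 15 lost the call when some library was left out and 0 changed sign.

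Against GK15 day 6, 4 genes were called by limma. The count was 32 with a pseudocount of 10 RPM, 13 in the 24-library fit and 0 with every library of the 3 groups as labelled, and with 1 library left out it ran from 0 to 16. With every library as labelled the SOX2 difference turned to -0.34 (limma adjusted p = 0.958). Among the libraries this added was GK15 day 6 library 2, which is doubtful in label. It held 394 RPM of SOX2, with PRDM1 at 0.5, SOX17 at 3.98 and TFAP2C at 7.47 RPM. Quantile normalization gave 5 calls and edgeR 5. The cause of these changes was not tested.

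No paired analysis was possible because the labels give the libraries no replicate numbers. The pairwise differences between media rest on 3 and 2 libraries, and levels near 1 RPM on 2 to 7 reads.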

Other observations

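Entries that the files name by number (LOC) were left out of the lists, and 500 of them passed the filter, of which 119 were called. A symbol was found for 175 of the 500 in the RefSeq table of T2T-MFA8v1.1, and 30 of these 175 were called. The genes named here were chosen after their values were seen. MYH4, a fast skeletal myosin heavy chain, was at 86.8, 66.3 and 22.5 RPM in aRB27 day 6 cells and at 0 in all 4 ESC libraries (log2 difference 5.69 ± 0.46). MYH2, another one, was at 16.1, 14.7 and 25.8 RPM in aRB27 day 6 cells and also at 0 in ESC (4.27). Skeletal myosin heavy chains are near-identical in sequence, and how shared reads were counted is not known here. CYP4X1, a cytochrome P450, was at 112, 66.8 and 66.8 RPM in aRB27 day 6 cells, against 0.88, 3.88, 0 and 0 RPM in ESC (5.53). CYP1A1, a target of the aryl hydrocarbon receptor, was at 24.97, 16.4 and 159 RPM in aRB27 day 6 cells and 0 in ESC (5.38), with library 4 far above the others. SCHIP1 was lower (-3.32). Whether these numbered entries are the same loci in the files' annotation was not tested beyond the match of the gene ID.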
